A study of Mus musculus with 2 samples.

Results

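Rab proteins are small GTPases that sit on the membranes of vesicles and organelles and act as switches for traffic between them. In the GTP-bound form, made by exchange factors (GEFs), a Rab recruits effectors that form, move, tether and fuse vesicles. GTPase-activating proteins (GAPs) return it to the GDP-bound form, which GDP dissociation inhibitors carry back to the cytosol. In macrophages, Rab proteins of endosomes, phagosomes and lysosomes carry engulfed particles towards degradation, and others carry cytokines and granule contents outward. The 57 Rab genes described here were all those whose name on the array is Rab with a number and an optional letter, out of 22613 gene names matched to a RefSeq gene. They were represented by 81 probes on 90 spots, control spots left out.

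The samples were bone marrow-derived macrophages, grown from mouse marrow, of 2 genotypes. The first, labelled c-Maf-/-, carried no intact allele of Maf, the gene of the basic leucine zipper factor c-Maf. The other, labelled c-Maf+/-, kept 1 allele, so each sample lacked at least 1 allele and wild-type cells were not analysed here. Both were grown for 5 days in M-CSF, the macrophage growth factor, supplied as CMG14-12 culture medium. Both then received LPS (lipopolysaccharide, from the outer membrane of bacteria) at 100 ng/ml for 5 h, so untreated cells were not analysed here either. From each, 50 ng of total RNA was labelled with the dye Cy3 and read on a one-colour Agilent array. The labels give neither strain, sex nor age, nor how many mice a preparation came from. Each genotype was 1 array, so the difference between genotypes has no replicate check, no test was possible, and every comparison is between these 2 arrays. The question of the design is how transcripts of LPS-treated macrophages differ when no intact Maf allele, rather than 1, is left.

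Maf itself followed the labels. Its probes had processed signals of 12.6 and 5.96 in c-Maf-/- macrophages, against 15101 and 541 in c-Maf+/- macrophages. Neither was well above background in c-Maf-/-, and Maf was at least 120-fold lower. Which part of the gene was deleted is not given in the labels, so whether these probes lie inside it is not settled. Macrophage markers were present on both arrays, 10 of 10 well above background, with signals summing to 526106 in c-Maf-/- and to 497591 in c-Maf+/- and a median log2 difference of -0.00. Single markers differed, from -0.61 for Aif1 to 0.58 for Lyz2, with 5 below 0 and 5 above.

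Markers of other cells were also read. All 12 of 12 neutrophil markers were well above background on both arrays, with a median difference of -0.63, 8 below 0 and 4 above. At least 2-fold lower were 5 (1.73% of all genes), and 0 were 2-fold higher (1.43%). Their signals summed to 179084 in c-Maf-/- and to 198791 in c-Maf+/-. The brightest moved in opposite directions. Lcn2 had 93372 in c-Maf-/- and 71434 in c-Maf+/-, and S100a9 had 34671 in c-Maf-/- and 68498 in c-Maf+/-. Of 10 dendritic cell markers, 8 were measured, with signals summing to 46603 in c-Maf-/- and to 44768 in c-Maf+/- and a median of -0.75. Siglech made up most of both sums, with 43949 in c-Maf-/- and 41554 in c-Maf+/-, so they say little about the other markers. Xcr1 and Cd209a were not well above background. The megakaryocyte and erythroid markers had a median of 0.73 over 8 of 11 (signals summing to 58516 in c-Maf-/- and to 59470 in c-Maf+/-), with Klf1 and Hbb-b1 among those not well above background. Most of these sums was Pf4, with 56215 in c-Maf-/- and 58067 in c-Maf+/-. Osteoclast markers had a median of -0.63 over 6 of 8 (summing to 15500 in c-Maf-/- and 17009 in c-Maf+/-). Of these, 4 were below 0 and 2 above, Acp5 (0.60) and Ctsk (0.24). Calcr and Mmp9 were flagged well above background in c-Maf-/- only. Calcr was at least 2.42-fold higher, but Mmp9 had nearly equal signals, 41.5 in c-Maf-/- and 43.3 in c-Maf+/-. Stromal and endothelial markers had -0.36 over 6 of 8 (summing to 8547 in c-Maf-/- and 7925 in c-Maf+/-), Col3a1 and Cdh5 being well above background in c-Maf+/- only. Most of these sums was the brighter Kdr probe, with 7858 in c-Maf-/- and 6978 in c-Maf+/-. Of the lymphocyte markers 5 of 10 were measured (median -0.07) and of the mast cell and basophil markers 3 of 8 (median -0.06). Cpa3, of mast cells, was well above background in c-Maf+/- only, with signals of 9.52 in c-Maf-/-, against 80.8 in c-Maf+/-. Xist, the RNA of the inactive X chromosome, had signals of 5.43 and 6.25 in c-Maf-/-, not well above background, against 263 and 115 in c-Maf+/-. The Y-linked genes Ddx3y and Eif2s3y were well above background on both arrays, with signals of 1068 and 3906 in c-Maf-/- and 743 and 2465 in c-Maf+/-. The part of cell makeup and sex in the Rab differences was not tested, and in RNA from whole cultures fewer cells of a type and less RNA per cell cannot be told apart.

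Of the 57 Rab genes, 47 (82.5%) had at least 1 probe well above background on both arrays, against 54.9% of all gene names. A gene's level was the mean over such probes of the log2 signal minus the log2 of the array's 75th percentile, and its difference is that level in c-Maf-/- minus that in c-Maf+/-. Differences are taken only between arrays for the same probe, since probes differ in brightness for reasons other than transcript number. Bright and dim thus describe a probe's signal only, and the marker sums add signals of different probes. Rab15 and Rab30 were well above background in c-Maf+/- only. The other 8, Rab9b, Rab17, Rab25, Rab26, Rab36, Rab39b, Rab40b and Rab42, were not well above background on either array.

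The measured Rab genes differed little between the genotypes. Only Rab23 was at least 2-fold higher in c-Maf-/- (1 of 47, 2.13%, against 1.43% of the 12406 genes measured), and 0 were at least 2-fold lower, against 1.73% of all genes. At 1.5-fold, 4 were higher (8.51%, against 5.38% of all genes) and 4 were lower (8.51%, against 6.5%), so at either threshold the shares lay near those of all genes. The 4 higher genes were Rab23, Rab27b, Rab3a and Rab6b, and the 4 lower were Rab38, Rab43, Rab9 and Rab19. The 1.5-fold counts were 6 higher and 2 lower with spike-in scaling, and 0 higher and 3 lower with normexp background correction.

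The signs leaned further to one side than the sizes. Below 0 were 34 of the 47 (72.3%), against 53.7% of all genes, and 13 were above. With the arrays set equal on their spike-in transcripts in place of the 75th percentile, 22 Rab genes (46.8%) and 32.5% of all genes were below 0. The median Rab difference was -0.11 and that of all genes -0.02, which became 0.02 and 0.11 with spike-in scaling. The direction of the Rab median thus rests on the scaling. The Rab median minus that of all genes was -0.09, which spike-in scaling, a constant shift of every gene, cannot change.

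**Figure D1:**
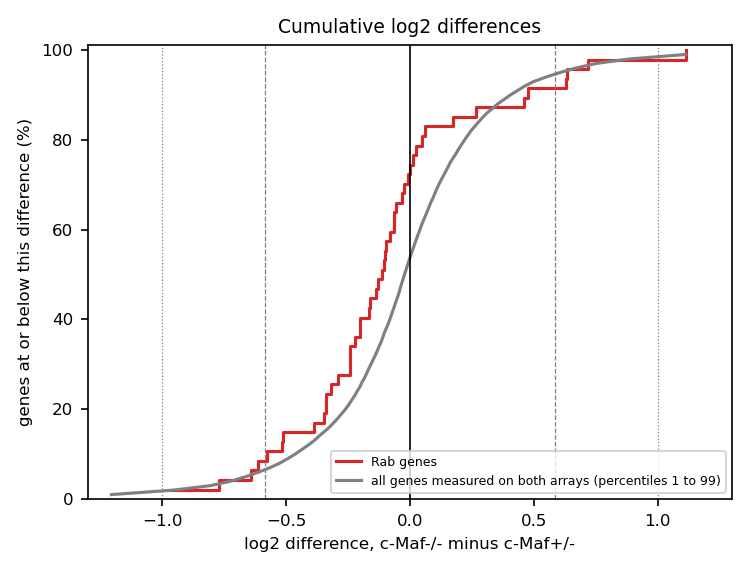
Cumulative share of genes (vertical axis, percent) at or below each log2 difference, c-Maf-/- minus c-Maf+/- (horizontal axis), for the 47 measured Rab genes (red steps) and for all 12406 measured genes (grey line, percentiles 1 to 99); dashed and dotted lines mark 1.5-fold and 2-fold. The Rab steps lie left of the grey line around 0, where 72.3% of Rab genes and 53.7% of all genes are below 0 (46.8% and 32.5% with spike-in scaling), and meet it towards both ends.

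The spread that a difference must be read against came from probes and spots, not from replicate cultures. Over the 3452 genes with at least 2 measured probes, the SD of the difference over probes had a median of 0.09 and a 95th percentile of 0.48. For the 195 of them with a mean signal under 100 the median SD was 0.25 and the 95th percentile 0.80. Of the Rab genes, 35 rested on 1 probe and 12 on 2 or more, and the median SD over probes of these 12 was 0.10. Their probes had 1 sign in 8 of 12. The largest SD over probes was that of Rab4a, 0.45.

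**Figure D2:**
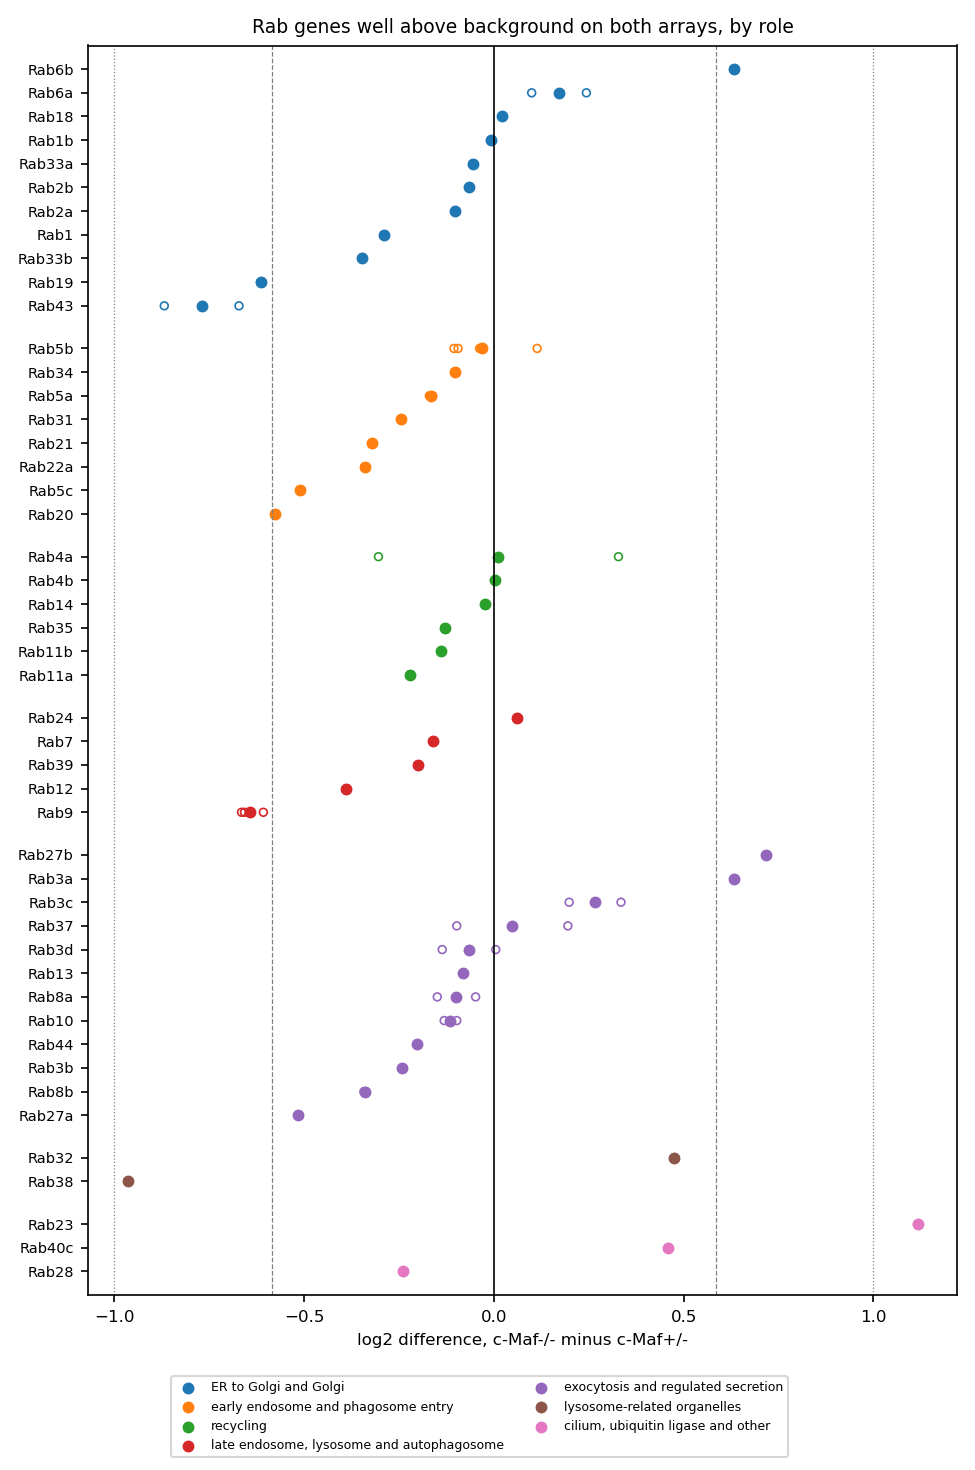
Log2 difference, c-Maf-/- minus c-Maf+/- (horizontal axis), of the 47 measured Rab genes, grouped by role and sorted within each role; filled circles are genes, open circles the single probes of genes with 2 or more, and dashed and dotted lines mark 1.5-fold and 2-fold. Rab23 (1.12) and Rab38 (-0.96) are the extremes, and the early endosome and phagosome group lies wholly below 0 (6 of 8 with spike-in scaling, 7 of 8 with the brightest probe alone). Of all genes 53.7% and of the 47 Rab genes 72.3% are below 0, or 32.5% and 46.8% with spike-in scaling. The roles were drawn up with earlier results of these data known.

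Rab proteins of the secretory pathway between endoplasmic reticulum and Golgi had 11 measured members with a median of -0.07. Below 0 were 8 of the 11 (4 with spike-in scaling), against 53.7% of all genes (32.5% with spike-in scaling). Rab43, a Golgi Rab that in mouse dendritic cells also serves cross-presentation, was the lowest. Its first probe (mm9 chr6:87744623-87744682) gave 330 in c-Maf-/- and 591 in c-Maf+/-. Its second probe (chr6:87738861-87738920) had 16630 in c-Maf-/- and 26022 in c-Maf+/-. Both probes were lower in c-Maf-/-, by -0.87 and -0.67, giving a mean of -0.77 (SD over probes 0.14, n = 2 probes), or 1.71-fold. Rab19, a Rab of the same Golgi-related branch, had 589 in c-Maf-/- and 887 in c-Maf+/- on its 1 probe (chr6:39340244-39340303), a difference of -0.61.

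The promoters of these 2 genes are shown because both were past 1.5-fold and each holds a motif that was searched for. For Rab43 the 150 bases before the RefSeq start (GRCm38.p6 chr6:87812099-87812248, minus strand) have in capitals TGCTGA, part of the element that Maf proteins bind. The searched promoter around this start held 2 matches, not all within the bases shown, and another Rab43 promoter held 1. For Rab19 a 40-base window (chr6:39381328-39381367, plus strand) has in capitals 2 overlapping matches, read on the other strand, to the core of the interferon-stimulated response element (GAAA, any 2 bases, GAAA).
Rab43: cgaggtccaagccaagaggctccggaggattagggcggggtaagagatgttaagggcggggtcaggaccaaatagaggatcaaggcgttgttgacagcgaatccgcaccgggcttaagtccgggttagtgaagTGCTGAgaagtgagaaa
Rab19: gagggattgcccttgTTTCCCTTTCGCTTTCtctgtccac

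Rab33b, a Golgi Rab that also binds the autophagy protein Atg16l1, had 1044 in c-Maf-/- and 1305 in c-Maf+/- (-0.35). Rab1, which acts between the endoplasmic reticulum and the Golgi, had 28053 in c-Maf-/- and 33678 in c-Maf+/- (-0.29). Its relative Rab1b had 11397 in c-Maf-/- and 11253 in c-Maf+/-, a difference of -0.01 that was above 0 under 3 of the 10 settings. These differences were all smaller than those of Rab43 and Rab19. In the other direction, Rab6b, the isoform of the Golgi Rab6 known best from brain, had 93.9 in c-Maf-/- and 59.6 in c-Maf+/- (0.63), a dim probe. The widely expressed Rab6a had a bright probe with 11287 in c-Maf-/- and 9365 in c-Maf+/-, and a mean of 0.17 (SD over probes 0.10, n = 2). Rab30, a Golgi Rab, had a probe with 10.2 in c-Maf-/-, not well above background, and 38.9 in c-Maf+/-, which made it at least 1.64-fold lower. That bound sets the dim probe at 24.2, the dimmest value counted as well above background in c-Maf-/-. On the log2 scale it was -0.71, but -0.27 with normexp, -0.26 with no background subtraction and -0.58 with spike-in scaling, all short of 1.5-fold. The other probe of Rab30 was not well above background on either array, with 6.70 in c-Maf-/- and 5.57 in c-Maf+/-. The remaining Golgi genes Rab2a, Rab2b, Rab18 and Rab33a lay between -0.10 and 0.02.

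The early endosome and phagosome Rab genes were all measured, and all 8 were below 0, with a median of -0.28. Below 0 were 53.7% of all genes and 72.3% of the measured Rab genes. The role groups were drawn up with earlier results of these data known, and another grouping could give another count. The shared sign is thus a description only. With spike-in scaling 6 of 8 were below 0 (median -0.15), against 32.5% of all genes and 46.8% of the measured Rab genes. Rab34 and Rab5b were then above 0. With the brightest probe of each gene alone 7 of 8 were below 0. None was past 1.5-fold lower, a size that 6.5% of all genes reached. Rab20, which acts in phagosome maturation, was the lowest of them, with 1517 in c-Maf-/- and 2223 in c-Maf+/- (-0.58, or 1.49-fold), on chromosome 8, which also carries Maf. The other measured Rab genes of that chromosome were Rab3a (0.63), Rab4a (0.01) and Rab8a (-0.10). The part of the shared chromosome in these values was not tested.

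The Rab5 proteins direct the first fusion steps of endosomes and phagosomes and differed from each other. Rab5c had 28944 in c-Maf-/- and 40533 in c-Maf+/- on 1 probe (-0.51). Rab5a had 7531 in c-Maf-/- and 8271 in c-Maf+/- on a probe printed on 10 spots, whose differences had an SD of 0.04. Its other probe had 2866 in c-Maf-/- and 3168 in c-Maf+/-, and the gene differed by -0.17, so the 2 probes of Rab5a gave nearly the same value. Rab5b had 4 probes between -0.11 and 0.11, with a mean of -0.03, and changed sign with the setting.

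Among the others, Rab22a, which sorts cargo between early and recycling endosomes, had 3667 in c-Maf-/- and 4561 in c-Maf+/- (-0.34). Rab21, which takes part in integrin endocytosis, had 512 in c-Maf-/- and 628 in c-Maf+/- (-0.32). Rab31, which acts between the trans-Golgi network and endosomes, had 6971 in c-Maf-/- and 8108 in c-Maf+/- (-0.24). All 3 were thus lower in c-Maf-/-, under each of the 10 settings. Rab34, known from macropinocytosis and phagosome maturation, had 1325 in c-Maf-/- and 1398 in c-Maf+/- (-0.10), and was above 0 with spike-in scaling.

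Windows of 40 bases from the promoters of Rab5a (GRCm38.p6 chr17:53479122-53479161, plus strand) and Rab21 (chr10:115315599-115315638, minus strand) are shown with that of the autophagy gene Rab24 (chr13:55321956-55321995, minus strand), because these 3 Rab promoters hold TCACGTGA. The capitals mark this motif, an E-box of the kind bound by TFEB and other lysosomal gene regulators.
Rab5a: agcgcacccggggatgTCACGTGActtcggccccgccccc
Rab21: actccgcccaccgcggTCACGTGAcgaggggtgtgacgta
Rab24: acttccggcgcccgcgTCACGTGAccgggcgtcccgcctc

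Recycling Rab proteins return receptors to the cell surface. Of their 9 genes, 6 were measured, with a median of -0.08. Below 0 were 4 of 6 (2 with spike-in scaling), against 53.7% of all genes (32.5% with spike-in scaling). Rab11a, the widely expressed Rab of recycling endosomes, had 5427 in c-Maf-/- and 6217 in c-Maf+/- (-0.22). Rab11b had 6097 in c-Maf-/- and 6595 in c-Maf+/- (-0.14). Rab14, which acts between Golgi and endosomes, had 18044 in c-Maf-/- and 18013 in c-Maf+/- (-0.02). The differences in this group were thus small. Rab35 (-0.13) and Rab4b (0.00) completed it with Rab4a, whose probes disagreed: 192 in c-Maf-/- and 233 in c-Maf+/- on one, and 41.6 in c-Maf-/- and 32.5 in c-Maf+/- on the other, for a mean of 0.01. Rab15, known from neurons, had a probe with 14.9 in c-Maf-/-, not well above background, and 52.6 in c-Maf+/-, and was at least 2.21-fold lower. That bound was -1.15 on the log2 scale, and -0.54 with normexp background correction. The other probe of Rab15 was not well above background on either array, with 5.21 in c-Maf-/- and 4.75 in c-Maf+/-.

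Among the Rab genes of late endosomes, lysosomes and autophagosomes, 5 of 8 were measured, with a median of -0.20. Of the 5, 4 were below 0, also with spike-in scaling, against 53.7% of all genes (32.5% with spike-in scaling). Rab9, which serves the return of mannose 6-phosphate receptors from late endosomes to the trans-Golgi network, was the lowest. Its 3 probes, of which a pair overlap, had 6301, 3995 and 2938 in c-Maf-/-, against 9430, 6189 and 4576 in c-Maf+/-. All 3 were lower in c-Maf-/-, with a mean of -0.64 and an SD over probes of 0.03, smaller than that of Rab43. Rab9 lies on the X chromosome, whose 396 measured genes had a median of -0.05, beside the Xist difference given above. Its part in the Rab9 difference was not tested.

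Rab7, the Rab of fusion with lysosomes, had 4551 in c-Maf-/- and 4998 in c-Maf+/- (-0.16). Rab12, which directs transferrin receptor to degradation, had 4876 in c-Maf-/- and 6269 in c-Maf+/- (-0.39). Rab24, of the autophagy pathway, had 3290 in c-Maf-/- and 3097 in c-Maf+/- (0.06). Rab39 was dim and differed by -0.20. Of these, Rab12 alone differed by more than 0.3. A late endosomal Rab annotated under a clone name on the array, Rab7b, had 5801 in c-Maf-/- and 5903 in c-Maf+/- (-0.05), and lies outside the naming rule.

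The Rab genes of exocytosis and regulated secretion had 12 of 13 members measured, with a median of -0.09. Below 0 were 8 of the 12 (4 with spike-in scaling), against 53.7% of all genes (32.5% with spike-in scaling). Rab27b, which with Rab27a serves the release of granules and exosomes, had 63.0 in c-Maf-/- and 37.6 in c-Maf+/- (0.72, or 1.64-fold). Its other probe was not well above background, and the measured probe shared runs of at least 14 bases with 32 probes of other genes, where the median over the 81 Rab probes was 1. Rab27a had 33.4 in c-Maf-/- and 46.9 in c-Maf+/- (-0.52). The relatives thus differed in opposite directions, both from signals near background. Rab3a, known from synaptic vesicles, was brighter, with 467 in c-Maf-/- and 296 in c-Maf+/- (0.63, or 1.55-fold), on chromosome 8. Its relative Rab3c had 2 bright probes with 5508 and 3186 in c-Maf-/-, against 4716 and 2481 in c-Maf+/-, a mean of 0.27. Those probes share 54 bases, so they are nearly the same measurement, and another probe of Rab3c was not well above background.

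The Rab genes of polarised exocytosis had bright probes and differed by less than 1.5-fold. Rab8b had probes with 1320 and 14766 in c-Maf-/-, against 1644 and 18322 in c-Maf+/-, a mean of -0.34 (SD over probes 0.004, n = 2). Rab8a had 1647 and 3562 in c-Maf-/-, against 1673 and 3881 in c-Maf+/- (-0.10). Rab10 had 5895 and 7987 in c-Maf-/-, against 6197 and 8592 in c-Maf+/- (-0.11). Only Rab8b kept its sign under all 10 settings, and Rab8a and Rab10 were above 0 with spike-in scaling. Rab44 (-0.20) and Rab3b (-0.24) were below 0, and Rab3d, Rab13 and Rab37 lay between -0.08 and 0.05. A further probe of Rab13 was well above background in c-Maf+/- only, with 16.4 in c-Maf-/- and 33.7 in c-Maf+/-.

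Rab38 and Rab32 carry cargo to lysosome-related organelles such as melanosomes, and in macrophages Rab32 is known from defence against Salmonella. These relatives stood apart in opposite directions. Rab38 was the lowest Rab gene, with 139 in c-Maf-/- and 266 in c-Maf+/- (chr7:95639879-95639938), a difference of -0.96, or 1.95-fold. A probe overlapping it was not well above background on either array. Rab32 had 25966 in c-Maf-/- and 18351 in c-Maf+/- (chr10:10265134-10265193), a difference of 0.48, or 1.39-fold. Another Rab of this branch, Rab29, listed on the array as Rab7l1 and so outside the naming rule, had probes with 6261 and 11528 in c-Maf-/-, against 7318 and 14035 in c-Maf+/- (-0.28).

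The remaining genes serve cilia, ubiquitin ligation or functions less well known. Rab23, which restrains Hedgehog signalling in mouse development, was the highest Rab gene, with 62.2 in c-Maf-/- and 28.2 in c-Maf+/- (chr1:33796952-33797011), a difference of 1.12, or 2.17-fold. The c-Maf+/- signal lay just above the lowest one counted as well above background there, 22.3, and the other probe of Rab23 was not well above background on either array. Rab40c, whose protein joins a ubiquitin ligase, was bright, with 2296 in c-Maf-/- and 1640 in c-Maf+/- (0.46). Rab28 had 205 in c-Maf-/- and 238 in c-Maf+/- (-0.24). The 150 bases before the start of Rab23 (GRCm38.p6 chr1:33719746-33719895, plus strand) are shown to set the highest Rab gene beside Rab43, the lowest with a promoter in the table, since both hold TGCTGA, in capitals.
Rab23: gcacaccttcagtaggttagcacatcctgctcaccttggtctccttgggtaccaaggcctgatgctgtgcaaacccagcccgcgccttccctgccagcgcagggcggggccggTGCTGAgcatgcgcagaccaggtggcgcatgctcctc

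**Figure D3:**
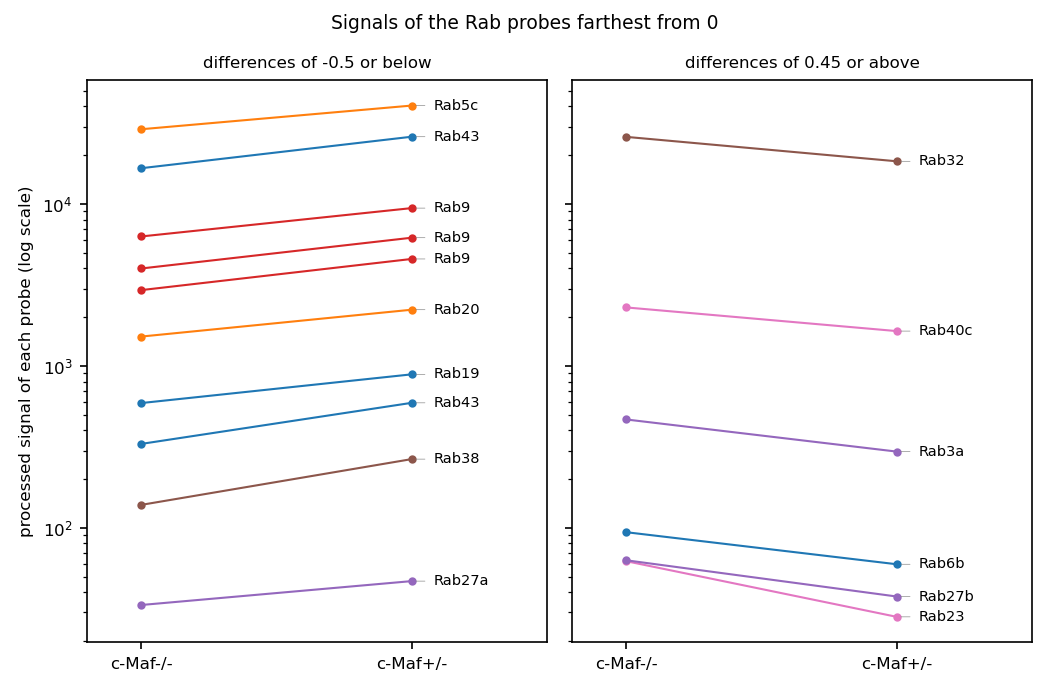
Processed signal (vertical axis, log scale) on the c-Maf-/- and c-Maf+/- arrays of the measured probes of the Rab genes farthest below 0 (left panel) and above 0 (right panel); each line joins 1 probe's values. On the left Rab5c, Rab43 and Rab9 are bright and Rab27a is dim, and on the right Rab32 and Rab40c are the brightest while Rab6b, Rab27b and Rab23 are dim.

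Promoters of 300 bases from RefSeq (GRCm38.p6, 59 promoters of 47 Rab genes, measured or not) were searched on both strands for 4 motifs. TGCTGA was in 9 Rab promoters (15.3%), against 19.5% of all 32851 promoters. The genes were Rab11b, Rab21, Rab23, Rab24, Rab35, Rab39b, Rab40b and Rab43. The 6 of them that were measured ran from -0.77 for Rab43 to 1.12 for Rab23, with a median of -0.13, against -0.14 for the 34 measured genes without it. TCACGTGA was in 3 Rab promoters (5.08%), against 0.974% of all promoters. TGANTCA, the element bound by AP-1 factors, was in 5.08% of Rab promoters, against 7.81% of all, and the interferon-stimulated response core in 1.69%, against 3.44%. TGCTGA and TGANTCA share the letters TGA and can overlap, but matches of different motifs did not overlap in any Rab promoter. A match describes the letters only.

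Over 10 settings for background, scaling and filters, 33 of the 47 Rab genes had 1 sign under every setting that gave a value, 22 below 0 and 11 above. The other 14 were Rab1b, Rab2a, Rab2b, Rab3d, Rab4a, Rab5b, Rab8a, Rab10, Rab13, Rab14, Rab33a, Rab34, Rab35 and Rab37. The share of all genes that kept 1 sign was not computed, so the 33 and their split cannot be set against it. Rab43 kept to values from -0.77 to -0.63, Rab9 from -0.64 to -0.51 and Rab32 from 0.45 to 0.61. Rab38 ran from -0.96 to -0.45, Rab23 from 0.51 to 1.25 and Rab27b from 0.00 to 0.85. With normexp background correction Rab23 was at 0.51, Rab6b at 0.32 and Rab27b at 0.30, so none of the higher genes past 1.5-fold, Rab3a (0.54) included, stayed past it.

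**Figure D4:**
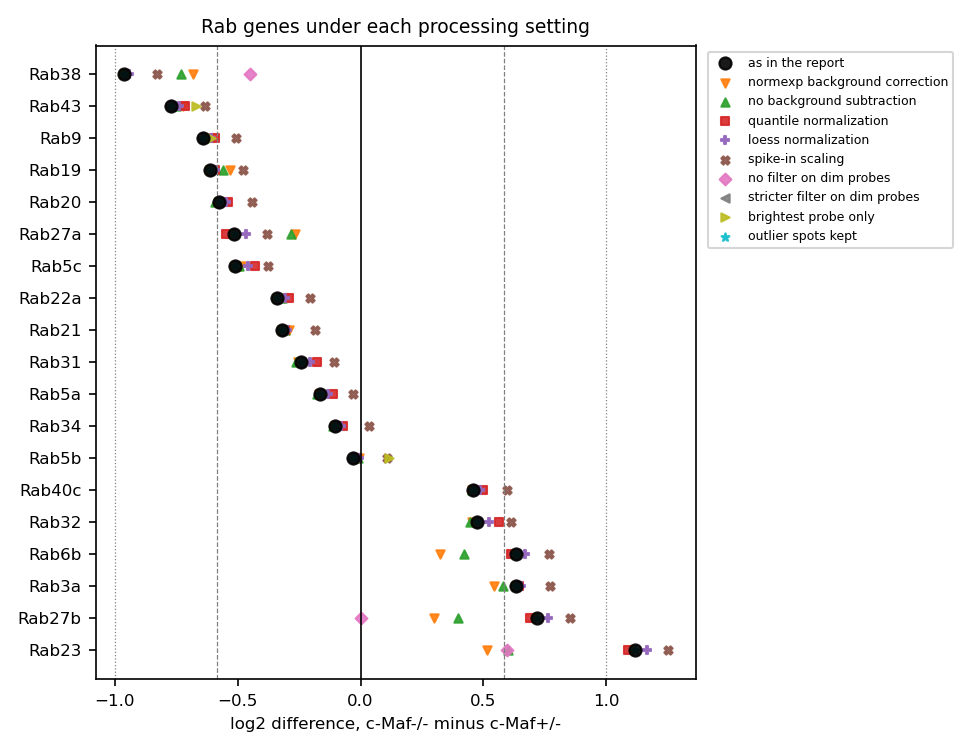
Log2 difference, c-Maf-/- minus c-Maf+/- (horizontal axis), under each of 10 processing settings (symbols) for the Rab genes past 1.5-fold, those close to it and the early endosome and phagosome group; dashed and dotted lines mark 1.5-fold and 2-fold. Rab43 stays between -0.77 and -0.63 and Rab9 between -0.64 and -0.51, whereas Rab23 spreads from 0.51 to 1.25 and Rab27b from 0.00 to 0.85.

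The regulators and effectors of Rab proteins were read from 5 lists, and their medians lay close to that of all genes. Of the exchange factors 35 of 39 were measured, with a median of -0.02, 0 at least 2-fold higher (1.43% of all genes) and 1 lower (1.73% of all genes). That 1 was Rin2, an exchange factor for Rab5, with 10745 in c-Maf-/- and 26130 in c-Maf+/- on 1 probe, a difference of -1.31, or 2.48-fold. It ran from -1.33 to -1.17 over the settings. At 1.5-fold 1 exchange factor was higher (5.38% of all genes) and 1 lower (6.5%). Dennd1b (-0.56) and Dennd1a (-0.54), exchange factors for Rab35, were the next lowest. Rgp1, a subunit of the Rab6 exchange factor, was the highest at 0.98, but its 2 probes gave 1.63 and 0.34. Dennd2d (0.57) and Rabif (0.56), a chaperone of nucleotide-free Rab proteins, followed.

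Of the GAPs 30 of 36 were measured, with a median of -0.01, 1 at least 2-fold higher (1.43% of all genes) and 0 lower (1.73%). At 1.5-fold 3 of the 30 were higher (5.38% of all genes) and 0 lower (6.5%). Tbc1d24 had 109 in c-Maf-/- and 50.6 in c-Maf+/- and was 2.12-fold higher, a call lost with normexp (0.61) and with no background subtraction (0.73). Tbc1d12 was at 0.63 and Tbc1d8b at 0.62, but their lowest values over the settings were 0.28 and 0.41, short of 1.5-fold. On the lower side were Tbc1d1 (-0.51), Tbc1d14 (-0.51) and Usp6nl (-0.48), a GAP for Rab5. All 7 prenylation and GDP dissociation inhibitor genes were measured, with a median of 0.06. Rabggta, a subunit of the enzyme that attaches the lipid anchor of Rab proteins, was the highest at 0.46, followed by its partner subunit Rabggtb (0.24), and Gdi2 (-0.21), Chml (-0.21) and Rabac1 (-0.15) were the lowest.

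Of the genes listed as effectors 46 of 58 were measured, with a median of -0.01. At least 2-fold higher was 1 (1.43% of all genes), and 0 were lower (1.73%). At 1.5-fold 5 were higher (5.38% of all genes) and 4 lower (6.5%). Rims3, listed for its RIM family of synaptic release sites and not shown here to bind a Rab, was the highest at 1.23. Its measured probe had 82.6 in c-Maf-/- and 34.6 in c-Maf+/-. Rims3 was at 0.52 with normexp, 0.67 with no background subtraction and 0.16 with dim probes kept. Another probe of Rims3 had 20.1 in c-Maf-/-, not well above background, and 37.4 in c-Maf+/-, in the opposite direction. Appl2, an effector of Rab5, was at 0.77, and Lrrk2, a kinase that phosphorylates several Rab proteins, at 0.66. Rufy3 (-0.74), Plekhf2 (-0.68) and Sytl3 (-0.65), an effector of Rab27, were the lowest. The measured Sytl3 probe was dim, with 31.0 in c-Maf-/- and 47.7 in c-Maf+/-. Another went the opposite way, with 29.9 in c-Maf-/- and 7.53 in c-Maf+/-, not well above background in c-Maf+/-. A further probe, well above background on neither array, had 10.9 in c-Maf-/- and 17.6 in c-Maf+/-. Sytl3 was at 0.20 with dim probes kept. The HOPS and CORVET complexes, which tether endosomes and lysosomes, had all 8 genes between -0.34 for Vps39 and 0.19 for Tgfbrap1, with a median of -0.01. Vps41 (-0.22) and Vps33a (-0.06) were the other two lowest, and Vps18 (0.07) and Vps8 (0.04) the other two highest. With spike-in scaling the 5 medians lay between 0.12 and 0.20, against 0.11 for all genes.

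**Figure D5:**
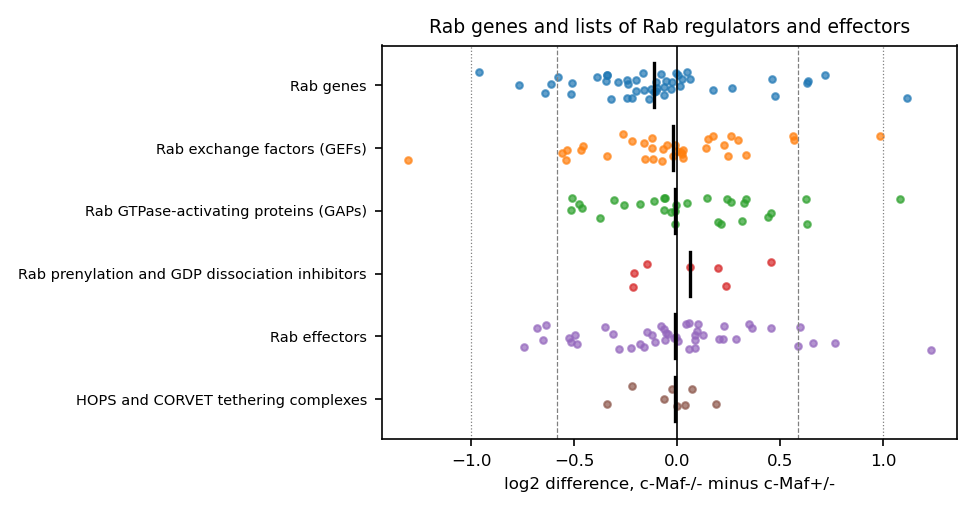
Log2 difference, c-Maf-/- minus c-Maf+/- (horizontal axis), of the measured Rab genes and of the measured members of 5 lists of Rab regulators and effectors; points are genes, black bars medians, and dashed and dotted lines mark 1.5-fold and 2-fold. The Rab median is -0.11 and those of the lists lie between -0.02 and 0.06 (0.02, and 0.12 to 0.20, with spike-in scaling), and Rin2 (-1.31) is the lowest point.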

How the data were processed

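The deposited values are linear spot intensities from Agilent Feature Extraction 10.7.3.1, protocol GE1_107_Sep09, array design 028005, per the file headers. Background had been subtracted within each array by that software, with no normalization between arrays, per the file headers. Each array held 59305 non-control spots and 55681 probes, and both lay on 1 slide. On the c-Maf-/- array 44.9% of spots and on the c-Maf+/- array 45.3% were well above background. No spot was saturated, and 149 outlier spots in c-Maf-/- and 136 in c-Maf+/- were dropped.

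The log2 scale was computed here from the deposited intensities: each array's 75th percentile of non-control spots (296 in c-Maf-/-, 291 in c-Maf+/-) was subtracted on the log2 scale, spots of a probe were averaged, and a gene is the mean over its probes flagged well above background in both samples. Where 1 array alone passed, a bound was given against the lowest such signal on the dim array. Signal over background and the number of arrays limit the precision. With 1 array per genotype no p-value was computed. Calls were made at 2-fold and 1.5-fold.

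Names were updated through a RefSeq table, and probes keep the mm9 coordinates given in the files. Whether a probe lies in an exon or UTR is not stated, as no mm9 annotation was used here. Promoters are from RefSeq, GRCm38.p6, and protein sequences were not used here. The Rab genes, roles, gene lists, motifs and settings were chosen with earlier results of these data known. Named genes were Maf, Rab genes past 1.5-fold, the extremes of each role, a set of macrophage Rab genes whatever their value, and in each list the 3 farthest from 0 each way and any past 2-fold. Rab genes named beyond this rule were chosen after their values were seen. Some genes that the rule or a marker list takes are not reported here. Alternatives covered background (normexp with offset 50, none), scaling (quantile, cyclic loess, spike-ins), dim-probe filters, probe summary and outlier spots. R 4.3.3 with limma 3.58.1 and Python 3.11.15 with numpy 2.4.6 and pandas 2.3.3 were used, and the scripts were tested on simulated data.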

Additional observations from a re-analysis of the deposited data

How the results depend on the processing

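Quantile and loess normalization, keeping outlier spots and using the brightest probe alone moved no count of Rab genes past a threshold and no Rab median by more than the spread between probes. The count at least 2-fold higher was 0, in place of 1, with normexp background correction, with no background subtraction, with no filter on dim probes and with a stricter filter. The count at least 1.5-fold higher was 0 with normexp, 1 with no background subtraction and 2 with the stricter filter, in place of 4. With spike-in scaling the count at least 1.5-fold lower was 2 in place of 4, the count below 0 was 22 in place of 34, and the Rab median was 0.022 in place of -0.11. With no filter on dim probes, Sytl3 reversed to 0.20. The cause of these changes was not tested. Of alternatives added after seeing the data, leaving out Rab genes of mean signal under 100 gave 0 past 2-fold higher and 1 past 1.5-fold higher, with a median of -0.13. Leaving out chromosome X or chromosome 8 moved no such count by over 1.5 times. Low signal over background limits Rab23, Rab27b, Rab6b, Rab27a, Rab15 and Rab30, and 1 array per genotype limits every value. No paired analysis was possible because each genotype had 1 array, and for the same reason leaving out a replicate and a slide block were not run.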

Other observations

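Some transcripts with Rab-like names lay outside the naming rule. Rab10os, an RNA annotated opposite Rab10, had 3 probes with 75.5, 96.6 and 3093 in c-Maf-/-, against 87.8, 106 and 3977 in c-Maf+/-, a mean log2 difference of -0.26 (SD over probes 0.11). Rab10 itself differed by -0.11. Rab26os had 168 in c-Maf-/- and 123 in c-Maf+/- (0.42), while Rab26 was not well above background on either array. Among the Rab-like GTPases, Rabl2 differed by -0.14, Rabl3 by 0.01 on a probe printed on 10 spots, and Rabl6 by 0.24.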
